A study of Homo sapiens with 6 samples.

Results

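Cholesterol genes are described here as 29 genes of the mevalonate and sterol pathway, its SREBP regulators and sterol transport and efflux, chosen by symbol and role from a table of 40111 genes. All 29 were present in the table, and all 29 passed the filter on low values. Messenger RNA was profiled in 3 libraries of LINC00894 knockdown cells, made with a CRISPR-Cas9 vector against this long non-coding RNA, and in 3 libraries of control cells labelled NC. Both groups carry the label BE(2)-M17, a human neuroblastoma line, with the cell type given as neuroblast. The labels do not say whether the knockdown cells are 1 clone or a pool, what vector the control cells received, or whether replicates were grown separately, so the p-values reflect variation among the 6 libraries alone and that variation may be technical. The comparison asks which genes differ when LINC00894 is lowered.

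Cells make cholesterol from acetyl-CoA through mevalonate, isoprenoid diphosphates, squalene and lanosterol. The transcription factors SREBP-1 and SREBP-2 (genes SREBF1 and SREBF2) raise the genes of this pathway when membranes are short of sterol; SCAP escorts them to the Golgi for cleavage, and INSIG proteins hold SCAP back when sterol is plentiful. Oxysterols, formed when sterol is abundant, activate the LXR receptors, which raise the efflux pumps ABCA1 and ABCG1, the receptor-degrading ligase MYLIP and SREBF1. In the nervous system cholesterol is made locally, because plasma lipoproteins do not cross the blood-brain barrier.

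The libraries held from 22898079 to 28782977 assigned reads in the knockdown group and from 29276653 to 48089716 in the control group. LINC00894 stood at 1.1, 1.3 and 0.867 FPKM (reads scaled to gene length and to the total reads of the library) in knockdowns 1, 2 and 3 and at 2.00, 2.24 and 2.21 FPKM in controls 1, 2 and 3, with no overlap (log2 fold change -0.93, SE 0.17, limma adjusted p = 0.0406). The labelled cell type was only partly borne out by its markers. Of 12 adrenergic neuroblast markers 11 were in the table and 5 passed the filter on low values. PHOX2A, a defining factor of that cell type, read at most 0.0389 FPKM in every library, and MYCN, added after its values were seen, read at most 0.267 FPKM, while GATA2 read from 27.1 to 29.7 FPKM in the knockdowns and from 16.2 to 24.9 FPKM in the controls. Control 1 stood apart from controls 2 and 3: over 10 heat shock genes the summed level was 2020 to 2520 FPKM in the knockdowns, 2070 FPKM in control 1 and 791 and 722 FPKM in controls 2 and 3. HSPA6, a strictly stress-induced HSP70, read 195, 155 and 161 FPKM in the knockdowns and 161, 0.83 and 1.18 FPKM in controls 1, 2 and 3. In 60.8% of all genes tested control 1 was closer to the knockdown average than to that of the other controls, so results are given with and without it below. For LINC00894 itself control 1 lay with the other controls, above every knockdown. A further gene, ATF3, was less clear. ATF3 was not the target of the vector, and its lower level in the knockdowns is known here only from these same libraries. It is therefore no independent check of the labels. Control 1 (239 FPKM) was again above every knockdown (155 to 167 FPKM), but also well below its fellow controls (352 and 415 FPKM). Its log2 difference from controls 2 and 3 was -0.68, and that of the knockdowns from control 1 was -0.56, so it was nearer the knockdowns. Whether the label of control 1 is right was not tested beyond these genes, and every value from all 6 libraries rests on that label. Blood markers, of which 3 of the 7 tested rose, summed to 518 to 897 FPKM in the knockdowns and to 7.17, 4.24 and 315 FPKM in controls 1, 2 and 3. Of these, the globin HBB read 329 to 786 FPKM in the knockdowns and 2.22 to 61.8 FPKM in the controls. The leukocyte marker PTPRC read 0.324 to 1.14 FPKM in the knockdowns and at most 0.51 FPKM in the controls. Whether the blood markers came from blood or from the cells themselves was not tested. The part of either source or of heat shock in the cholesterol results was not tested.

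In the knockdown, the master regulator SREBF2 fell, while ACAT2, an early thiolase of the pathway, and NSDHL, a late sterol decarboxylase, rose. No cholesterol gene changed by as much as 2-fold, and the sizes of the log2 fold changes reached 0.63. Of the 29 genes tested, 2 rose, 1 fell and 26 did not pass (limma on log2(FPKM + 0.1), adjusted p under 0.05 over all 18548 genes tested). That is 10.3% of the cholesterol genes, against 6.20% of all genes tested (4.14% higher and 2.06% lower). At an unadjusted p under 0.05, 7 of the 29 passed, 3 higher and 4 lower, where 32.6% of all genes did. In limma-voom, which models the recovered reads, 2 cholesterol genes rose and 2 fell, where 16.9% of all genes were called (12.4% higher and 4.50% lower). With the authors' size factors 1 rose and 2 fell, where 4.49% of all genes were called (1.82% higher and 2.67% lower). The median log2 fold change was 0.03 over the cholesterol genes and 0.07 over all genes, and 15 of the 29 values were above 0. The groups did not overlap in 12 cholesterol genes, 4 of them higher and 8 lower in the knockdown, or 41.4%, against 38.2% of all genes tested (23.9% higher and 14.3% lower). Because RNA was taken from whole cultures, less RNA per cell and fewer cells of a kind cannot be told apart.

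**Figure D1:**
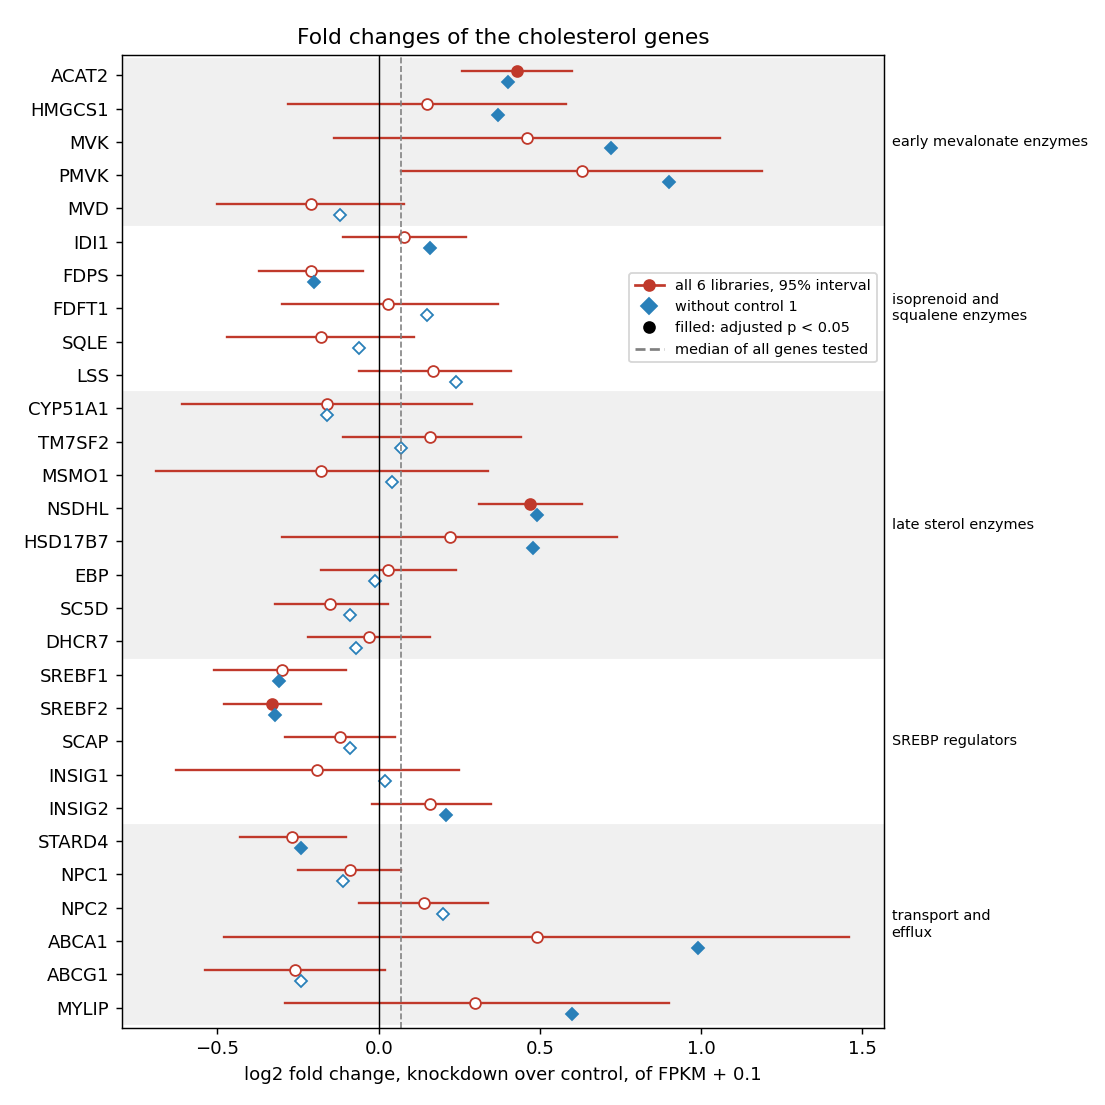
Log2 fold changes of the 29 cholesterol genes, knockdown over control, on the log2(FPKM + 0.1) scale, with 95% intervals from all 6 libraries (circles) and the values without control 1 (diamonds); filled symbols have an adjusted p under 0.05 in limma, and the dashed line is the median of all genes tested, 0.07. SREBF2 at -0.33, ACAT2 at 0.43 and NSDHL at 0.47 are filled in both, and ABCA1 moves farthest, to 0.99 without control 1.

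Of the 5 early enzymes, which carry acetyl-CoA to isopentenyl diphosphate, 1 rose and 0 fell; 4 of the 5 log2 fold changes were above 0, and their median was 0.43, or 0.31 with the authors' size factors. ACAT2, which joins acetyl-CoA units in the cytosol, read 15.2, 13.9 and 14.5 FPKM in knockdowns 1, 2 and 3 and 10.4, 11.4 and 10.5 FPKM in controls 1, 2 and 3. All 3 knockdown libraries lay above all 3 controls, control 1 included. It rose by 0.43 on the log2 scale (SE 0.07, n = 3 per group, limma adjusted p = 0.0379), a level 1.35-fold higher. With the authors' size factors in place of total reads, its log2 fold change was 0.31 and its limma adjusted p 0.0766, and with median-of-ratios factors 0.36 and 0.0519. In GENCODE 29, 33.9% of its exon bases also belong to SOD2-OT1 on the other strand. The second-strand step of the protocol keeps no strand mark, so reads of both genes cannot be told apart there. The gene length implied by the FPKM of ACAT2 is 2639 bases, against 4299 exon bases in GENCODE 29. How much of that overlap was counted is therefore not known.

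PMVK, the phosphomevalonate kinase, had the largest fold change of the 29, and it did not pass the test. It read 25.5, 24.1 and 24.6 FPKM in the knockdowns and 23, 11.5 and 15.2 FPKM in controls 1, 2 and 3. The knockdowns agreed to within 1.06-fold while the controls spanned 2.00-fold, with control 1 next to the knockdowns. The log2 fold change was 0.63 (95% interval 0.07 to 1.19, limma adjusted p = 0.122). MVK, the mevalonate kinase before it, stood lower, with 2.88, 2.26 and 2.17 FPKM in the knockdowns and 2.51, 1.54 and 1.32 FPKM in the controls (log2 fold change 0.46, SE 0.25, adjusted p = 0.243). Control 1 lay above knockdowns 2 and 3, so the groups overlapped. HMGCS1, the HMG-CoA synthase, had 11.2, 10.7 and 11.3 FPKM in the knockdowns and 13.4, 9.05 and 8.15 FPKM in the controls. The knockdowns thus lay between control 1 and the other controls. In GENCODE 29, 15.0% of the exon bases of HMGCS1 also belong to AC114947.2 on the other strand. Its implied length is 6627 bases, against 4702 exon bases there. MVD, which decarboxylates mevalonate diphosphate, was the 1 early enzyme with a value below 0, at 5.83 ± 0.504 FPKM in the knockdowns and 6.78 ± 0.907 FPKM in the controls (SD, n = 3 each; log2 fold change -0.21).

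The enzymes from isopentenyl diphosphate to lanosterol differed little, and 0 of 5 passed in limma, with 1 at an unadjusted p under 0.05 and 0 of 5 past limma-voom. FDPS, which makes farnesyl diphosphate for sterols and prenylation alike, read 17.2, 17.8 and 17 FPKM in the knockdowns and 20.3, 21.1 and 18.8 FPKM in the controls. Every knockdown library was below every control, by a log2 fold change of -0.21 (SE 0.07, adjusted p = 0.0918). Of 8 pseudogenes named for FDPS 5 were in the table, none above 0.65 FPKM, and 18.6% of its exon bases also belong to RUSC1-AS1 on the other strand, so its level is uncertain to that extent. SQLE, the squalene epoxidase, read 23.4, 24.6 and 24.6 FPKM in the knockdowns and 32.7, 27 and 23.6 FPKM in controls 1, 2 and 3, with control 1 the highest library and control 3 level with the knockdowns. The isomerase IDI1, the squalene synthase FDFT1 and the lanosterol synthase LSS had log2 fold changes of 0.08, 0.03 and 0.17, each with a 95% interval that includes 0. The value of FDFT1 turned to -0.09 and that of IDI1 to -0.04 with the authors' size factors. Of the exon bases of IDI1, 14.8% also belong to IDI2-AS1 on the other strand.

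Among the enzymes that turn lanosterol into cholesterol, 1 of 8 passed. NSDHL, an X-linked dehydrogenase that removes methyl groups at carbon 4, had the smallest p of the 29 genes. It read 10.7, 10.9 and 10.2 FPKM in the knockdowns and 7.82, 7.68 and 7.37 FPKM in the controls. The groups were far apart relative to their spread, 1.07-fold within the knockdowns and 1.06-fold within the controls. NSDHL rose by 0.47 on the log2 scale (SE 0.07, 95% interval 0.31 to 0.63, limma adjusted p = 0.0348), a level 1.38-fold higher. The other enzymes of the same demethylation step did not pass. MSMO1, the methyl sterol oxidase, read 16.1, 17 and 18.7 FPKM in the knockdowns and 26.5, 19.6 and 14.2 FPKM in controls 1, 2 and 3, the controls spanning more than the knockdowns on both sides. HSD17B7, the ketoreductase, read 7.96, 7.11 and 8.13 FPKM in the knockdowns and 9.50, 5.42 and 5.63 FPKM in the controls, and a pseudogene named for it read up to 6.89 FPKM in the table.

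The other late enzymes were close between groups. SC5D, the lathosterol desaturase, was lower in every knockdown library, at 15.8 ± 0.468 FPKM in the knockdowns and 17.5 ± 1.22 FPKM in the controls (SD, n = 3 each), and did not pass (log2 fold change -0.15, adjusted p = 0.206). TM7SF2, a sterol reductase, had a log2 fold change of 0.16, EBP, the sterol isomerase, of 0.03, and DHCR7, which makes the last reduction to cholesterol, of -0.03 (95% interval -0.22 to 0.16). The lengths implied by the FPKM of SC5D, DHCR7 and EBP were 10054, 6852 and 1768 bases. In GENCODE 29 their exon bases are 5566, 4160 and 2409, so their levels in FPKM are uncertain to that extent. CYP51A1, the lanosterol demethylase, was the lowest of the 29 genes per length of gene, at 0.802 ± 0.0249 FPKM in the knockdowns and 0.911 ± 0.104 FPKM in the controls. In GENCODE 29, 79.4% of its exon bases also belong to an overlapping gene on the same strand, and 3 pseudogenes named for it were in the table, so its reads could be split or lost and its level is uncertain.

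Within the SREBP machinery, 4 of 5 log2 fold changes were below 0 and 1 gene passed, SREBF2. SREBF2 (ENSG00000198911; chromosome 22, 41833079 to 41907308 on the plus strand of GRCh38 in GENCODE 29) read 16.8, 18.2 and 17.3 FPKM in the knockdowns and 22.2, 22.4 and 21.1 FPKM in the controls. The 6 libraries fell into 2 separate groups, and control 1 lay with the other controls. SREBF2 fell by 0.33 on the log2 scale (SE 0.06, 95% interval -0.48 to -0.18, limma adjusted p = 0.0411), to 0.796 of the control level. It kept this call with median-of-ratios factors, with the authors' size factors and in limma-voom, at adjusted p of 0.0376, 0.0389 and 0.0238. It lost the call with no filter on low values, at 0.0715, and when any 1 library other than control 1 was left out, at 0.0983 to 0.178. SREBF1 read 3.04, 3.17 and 3.17 FPKM in the knockdowns and 3.86, 3.73 and 4.06 FPKM in the controls, likewise with no overlap. Its log2 fold change was -0.30 (SE 0.09), with an adjusted p of 0.075 in limma and 0.0465 in limma-voom.

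The other regulators did not pass. SCAP was lower in every knockdown library by a small margin, at 12.6 ± 0.569 FPKM in the knockdowns and 13.8 ± 0.664 FPKM in the controls (SD, n = 3 each; log2 fold change -0.12). INSIG1, itself a strong SREBP target, read 24.8, 27.7 and 24.6 FPKM in the knockdowns and 39.1, 27.6 and 23.3 FPKM in controls 1, 2 and 3. It was the highest of the 29 genes per length by the mean of all 6 libraries, 27.8 FPKM, but in the knockdowns NPC2 was higher, at a mean of 27.2 FPKM against 25.7 FPKM for INSIG1. The log2 fold change of INSIG1 was -0.19 with all 6 libraries and 0.02 without control 1. INSIG2, the paralog that is not driven by SREBP, was higher in every knockdown library, at 6.71, 7.15 and 6.81 FPKM in the knockdowns and 6.52, 5.92 and 5.98 FPKM in the controls (log2 fold change 0.16, adjusted p = 0.188).

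The promoters of the called regulator and the called sterol enzyme are shown because SREBF2 is a classic target of its own product, while NSDHL moved the other way. In RefSeq (GRCh38.p14), 25 of the 29 genes had promoter windows of 300 bases, 250 before and 50 after the annotated start, 32 windows in all; ACAT2, FDFT1, SQLE and ABCG1 had none. The windows are chr22:41832855-41833154 for SREBF2 and chrX:152830813-152831112 for NSDHL, both on the plus strand and printed 5′ to 3′. Capitals mark the sterol regulatory element letters TCACNCCAC and each CCAAT box, read on both strands, so that ATTGG is a CCAAT box on the other strand.
SREBF2 promoter: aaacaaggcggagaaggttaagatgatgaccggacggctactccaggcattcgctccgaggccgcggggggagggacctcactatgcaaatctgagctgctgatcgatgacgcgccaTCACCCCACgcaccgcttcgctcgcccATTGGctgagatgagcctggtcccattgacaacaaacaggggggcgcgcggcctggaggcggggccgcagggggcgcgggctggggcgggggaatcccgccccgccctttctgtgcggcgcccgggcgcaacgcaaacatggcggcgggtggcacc
NSDHL promoter: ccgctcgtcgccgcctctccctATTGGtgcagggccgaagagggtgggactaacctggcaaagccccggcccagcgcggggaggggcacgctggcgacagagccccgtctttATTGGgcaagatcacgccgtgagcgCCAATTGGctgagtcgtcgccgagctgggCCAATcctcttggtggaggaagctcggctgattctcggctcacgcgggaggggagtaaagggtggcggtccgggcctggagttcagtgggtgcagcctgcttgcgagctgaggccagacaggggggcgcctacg
The SREBF2 window holds 1 sterol regulatory element match, at position -133 from the start, and 1 CCAAT box at -106. The NSDHL window holds no match to those element letters and 5 CCAAT boxes, of which the pair at -113 and -110 share letters on opposite strands. The element letters occurred in 1.13% of all 35116 RefSeq windows and, among the 25 cholesterol genes with a window, in SREBF2 alone. A CCAAT box was present in 62.5% of the 32 cholesterol gene windows, in 34.61% of all windows and in 34.69% of the 22199 windows of protein-coding genes, the class of all 29. The GC box letters GGGCGG were in 93.8% of the 32 windows, 44.95% of all windows and 56.28% of protein-coding windows. The E-box letters CACGTG were in 18.8%, 7.26% and 8.34% of them. Some genes had more than 1 window, and overlapping windows of 1 gene, such as those of SC5D, can hold the same match. By gene, the CCAAT box was in 18 of the 25, the GC box in 24 and the E-box in 5. These are matches of letters, not measured sites, and only these letters were searched. A variant of the sterol regulatory element would be missed, so a window without a match is not shown to lack the element.

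**Figure D2:**
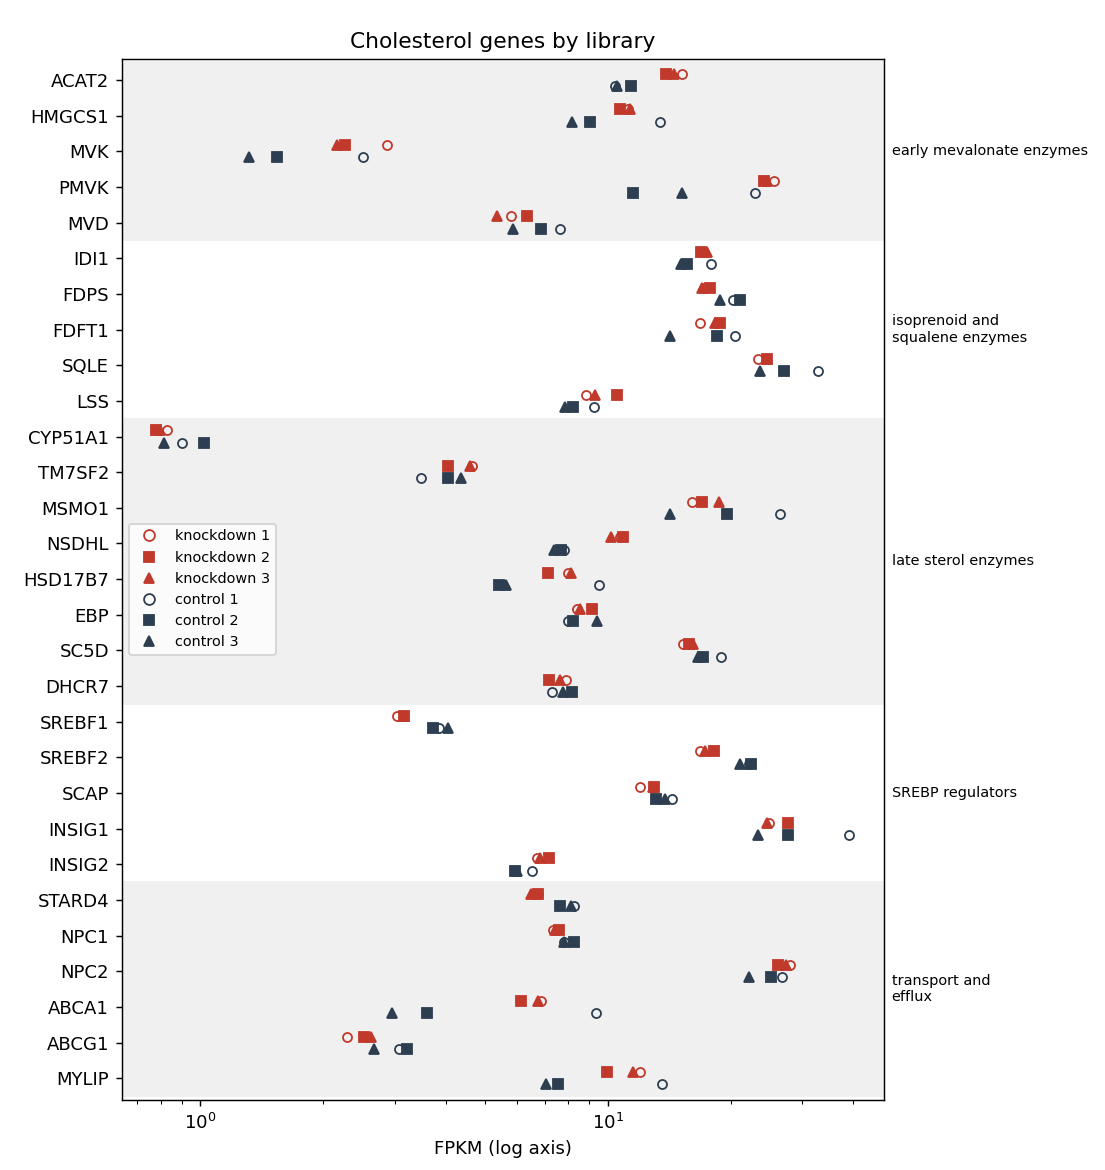
FPKM of each cholesterol gene (log axis) in the 3 knockdown libraries (red, upper) and the 3 control libraries (dark, lower); open circles are replicate 1 of each group. SREBF2, ACAT2 and NSDHL are among the genes whose groups do not overlap, 4 higher and 8 lower in the knockdown. Control 1 lies to the right of controls 2 and 3 for HMGCS1, MSMO1, INSIG1, ABCA1 and MYLIP, among others.

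Of the transport and efflux genes 0 of 6 passed in limma, with 1 at an unadjusted p under 0.05, and 0 of 6 passed limma-voom. STARD4, a soluble sterol carrier that is induced by SREBP-2, read 6.72, 6.74 and 6.47 FPKM in the knockdowns and 8.27, 7.64 and 8.11 FPKM in the controls. Its groups did not overlap, and its log2 fold change was -0.27 (SE 0.07, limma adjusted p = 0.066); with the authors' size factors it was -0.39, at an adjusted p of 0.0442. The lysosomal exporters NPC1 and NPC2 had log2 fold changes of -0.09 and 0.14, with 95% intervals of -0.25 to 0.07 and -0.06 to 0.34.

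The LXR-regulated genes differed in direction, and none of them passed in limma with all 6 libraries. ABCA1, which loads cholesterol onto apolipoproteins, read 6.85, 6.13 and 6.74 FPKM in the knockdowns and 9.37, 3.60 and 2.95 FPKM in controls 1, 2 and 3. The controls spanned 3.17-fold, the widest range of the 29 genes, with control 1 above and controls 2 and 3 below all knockdowns (log2 fold change 0.49, SE 0.40, adjusted p = 0.431). MYLIP had the same order, at 12, 9.97 and 11.5 FPKM in the knockdowns and 13.6, 7.53 and 7.06 FPKM in the controls (log2 fold change 0.30, adjusted p = 0.425). ABCG1 did not share it: it read 2.29, 2.52 and 2.63 FPKM in the knockdowns and 3.07, 3.22 and 2.67 FPKM in the controls, lower in every knockdown (log2 fold change -0.26, adjusted p = 0.181), as was SREBF1.

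Control 1 was the highest of all 6 libraries for 13 of the 29 cholesterol genes, or 44.8%, against 19.6% of all genes tested. It exceeded the mean of controls 2 and 3 by more than 0.5 on the log2 scale, a limit set after the values were seen, for 8 genes: HMGCS1, MVK, PMVK, MSMO1, HSD17B7, INSIG1, ABCA1 and MYLIP. That is 27.6% of the cholesterol genes, against 22.5% of all genes. For 6 of these 8 it also exceeded every knockdown library, the exceptions being MVK and PMVK. By contrast, control 1 differed from the mean of controls 2 and 3 by at most 0.08 in size for SREBF1, SREBF2, ACAT2, NSDHL, FDPS, STARD4 and ABCG1. The same held for CYP51A1 (-0.02) and NPC1 (-0.04). Within groups, the highest library exceeded the lowest by a median of 1.09-fold in the knockdowns and 1.21-fold in the controls over the 29 genes. The range was wider in the controls for 89.7% of the 29 genes and for 74.6% of all genes tested, so most of the table shared this.

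**Figure D3:**
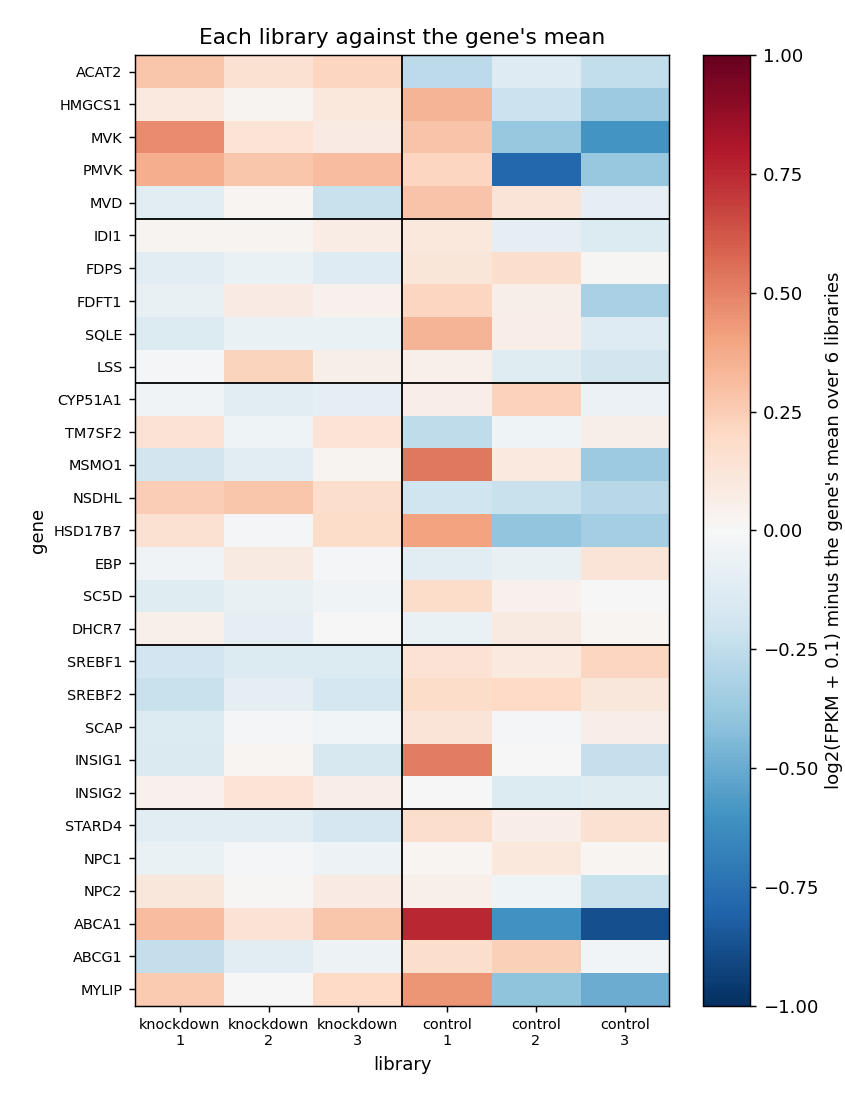
Each library's log2(FPKM + 0.1) minus the gene's mean over the 6 libraries, for the 29 cholesterol genes (rows, grouped by role) in the 3 knockdown and 3 control libraries (columns). Control 1 is the reddest column for MSMO1, INSIG1, HSD17B7 and ABCA1, and the SREBF1 and SREBF2 rows split by group.

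Without control 1, 10 cholesterol genes rose and 4 fell in limma, or 48.3%, against 43.6% of all genes tested (28.0% higher and 15.7% lower), so the larger count is close to that of the whole table. The 3 genes called with all 6 libraries were among the 14, and SREBF2 had a log2 fold change of -0.32, ACAT2 of 0.40 and NSDHL of 0.49. For these 3 genes control 1 lay within 0.08 of the mean of controls 2 and 3 on the log2 scale. That they stayed called is therefore no separate support. FDPS at -0.20, SREBF1 at -0.31 and STARD4 at -0.24 also fell without control 1, at limma adjusted p of 0.0461, 0.0258 and 0.0226. The rises added were those of HMGCS1 at 0.37, MVK at 0.72, PMVK at 0.90, IDI1 at 0.16, HSD17B7 at 0.48, INSIG2 at 0.21, ABCA1 at 0.99 and MYLIP at 0.60. In 6 of these 8, the exceptions being IDI1 and INSIG2, control 1 was more than 0.5 above the other controls. When any 1 of the other 5 libraries was left out, limma called 0 cholesterol genes and 0 of all 18548 genes, so this count is not particular to the cholesterol genes. At an unadjusted p under 0.05 there were then 5 to 10 cholesterol genes and 3676 to 4530 of all genes. The adjusted p of ACAT2 then lay between 0.0983 and 0.17 and that of NSDHL between 0.0928 and 0.17. Over all 6 omissions the log2 fold change of SREBF2 stayed between -0.36 and -0.30, that of ACAT2 between 0.40 and 0.47 and that of NSDHL between 0.44 and 0.50.

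The authors' deposited table, which scales libraries by size factors and not by total reads, called 0 cholesterol genes higher and 4 lower at an adjusted p under 0.05, or 13.8%. Of all 40090 genes with an authors' adjusted p, 7.45% were called, 1294 higher and 1692 lower. Those 40090 include genes under the filter on low values used here, which 18548 passed, so the shares do not compare like with like. In the authors' deposited table the 4 cholesterol genes called lower were SREBF2 at a log2 fold change of -0.45 (adjusted p = 0.00103), SREBF1 at -0.44 (0.0152), STARD4 at -0.39 (0.0152) and FDPS at -0.34 (0.0411). The authors' deposited table gave ACAT2 0.30 and NSDHL 0.35, at adjusted p of 0.144 and 0.103. In limma with those size factors the median log2 fold change was -0.05 over all genes and -0.09 over the cholesterol genes, against 0.07 and 0.03 with total reads.

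Related lipid genes, in 6 lists beside the 29, gave 2 rises and 0 falls among 52 tested of 56, or 3.85%, against 6.20% of all genes tested. At an unadjusted p under 0.05 there were 16, or 30.8%, against 32.6% of all genes. In limma-voom 7 rose and 2 fell, or 17.3%, against 16.9% of all genes. These shares are near or below those of the whole table, and the median log2 fold change was 0.00. Both rises were in the non-sterol isoprenoid branch, where 2 of 10 rose and 0 fell (median 0.10). DHDDS, a subunit of the enzyme that makes dolichol precursors, read 6.14, 5.35 and 5.09 FPKM in the knockdowns and 3.54, 3.64 and 3.37 FPKM in the controls (log2 fold change 0.63, SE 0.10, adjusted p = 0.0377). FNTA, the shared alpha subunit of the farnesyl and geranylgeranyl transferases, read 7.20, 7.21 and 7.86 FPKM in the knockdowns and 5.92, 4.84 and 4.92 FPKM in the controls (log2 fold change 0.50, SE 0.10, adjusted p = 0.0456, or 0.0558 with the authors' size factors). Neither gene overlapped between groups, and the geranylgeranyl diphosphate synthase GGPS1 of the same list, named after its values were seen, had a log2 fold change of 0.16 and did not pass.

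In the other 5 lists 0 genes passed in limma. Among 10 genes of SREBP processing and sterol sensing (median -0.04), TMEM97, an SREBP-induced sterol-binding membrane protein, had a log2 fold change of 0.36 and an adjusted p of 0.05, not under the threshold, and UBE2G2, a ubiquitin-conjugating enzyme of endoplasmic reticulum degradation, had -0.38 (adjusted p = 0.0837). Among 10 fatty acid genes tested (median 0.06), ACLY, which makes cytosolic acetyl-CoA from citrate, had 0.27, and SLC25A1, which exports that citrate from mitochondria, had -0.28, at adjusted p of 0.0512 and 0.0607. The groups did not overlap for ACLY, at 48.7, 49.7 and 47.2 FPKM in the knockdowns and 40.5, 41.8 and 38.4 FPKM in the controls, nor for SLC25A1, at 29.6, 34.5 and 32.3 FPKM in the knockdowns and 39.5, 39.1 and 38.7 FPKM in the controls. Of the lipoprotein receptors and LXR factors (7 tested, median -0.10), NR1H3, which encodes LXR alpha, read 3.08, 2.53 and 2.94 FPKM in the knockdowns and 1.94, 1.93 and 1.97 FPKM in the controls (log2 fold change 0.52, adjusted p = 0.0502), and the receptor LRP8 had -0.26. In sterol esterification, oxidation and transport (10 tested, median -0.01) the sterol hydroxylase CYP27A1 had 1.05 at 0.893, 1.17 and 0.885 FPKM in the knockdowns and 0.653, 0.376 and 0.287 FPKM in the controls (adjusted p = 0.085), and OSBPL2 had 0.36. The 5 other late sterol genes had a median of 0.00, with LBR, a sterol reductase of the nuclear envelope, at -0.17.

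**Figure D4:**
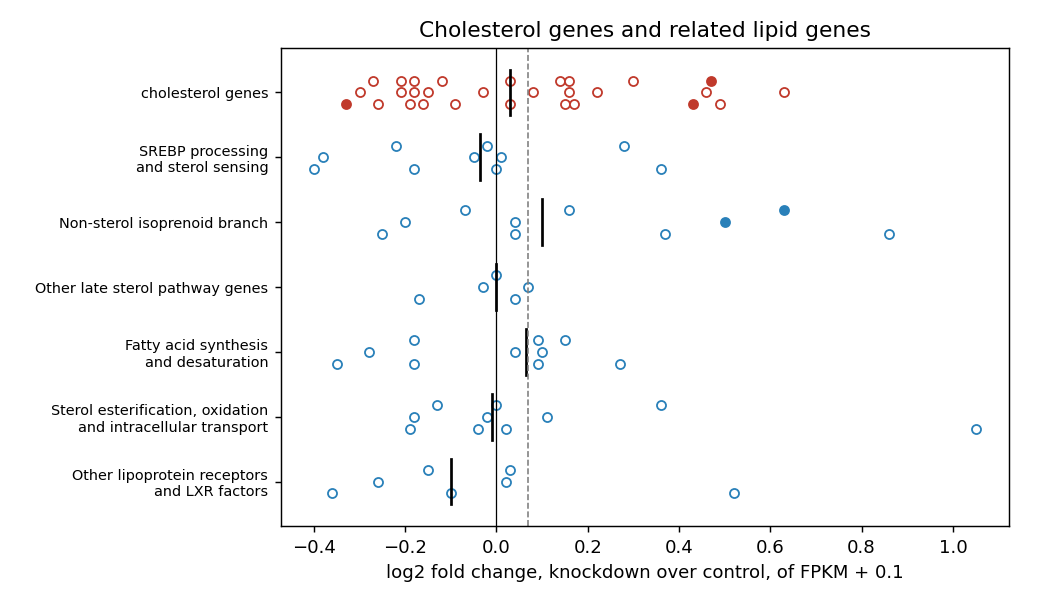
Log2 fold changes, knockdown over control, of the cholesterol genes (top) and of the 6 related lipid lists, each point a gene, filled where the adjusted p was under 0.05, with the list's median as a black bar; the dashed line is the median of all genes tested, 0.07. The filled points are SREBF2, ACAT2 and NSDHL in the top line and FNTA and DHDDS in the isoprenoid branch.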

How the data were processed

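RNA was extracted with TRIzol and messenger RNA taken with oligo-dT beads, reverse transcribed from random hexamers and made double-stranded, per the labels' protocols. Per the submitters' processing notes, HISAT2 was among the tools; its version, the read counter, the genome build and the annotation were not given there or in the labels. Deposited were FPKM per library (a unit read from the values) and, per the file headers, the authors' other columns: a mean read signal per group, a log2 fold change and a p-value per gene. All per-library columns matched a sample title.

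Whole reads were recovered from the FPKM ratios and the group means with Python 3.11.15 and pandas 2.3.3; within 0.1 read, 100.0% of values above 0 came out whole. For a gene of 1 kb, a single read equals 0.0208 to 0.0437 FPKM. The test was limma 3.58.1 (R 4.3.3) using the trend option, on log2(FPKM + 0.1), a scale on which low genes show less than their full change. Genes had to reach 0.5 FPKM in 3 or more libraries. The model held group alone, and two-sided p-values were adjusted by Benjamini-Hochberg. Intervals are moderated 95% intervals. The code was tested on simulated data. Every pair of libraries differed by more than sampling noise (chi-square per gene of at least 3.77). By that measure, which grows with the reads held, control 1 was at 27.0 to 31.22 from the knockdowns. It was at 70.25 and 80.21 from controls 2 and 3. Controls 2 and 3 were at 11.5 from each other and at 72.44 to 93.26 from the knockdowns.

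Members and lists were chosen with earlier results of these data known. All 29 members are named, with up to 2 genes of the smallest p per related list, and any that passed; 1 gene under that rule is not reported here. Gene places and exon overlaps come from GENCODE 29 (GRCh38), matched by gene ID for 96.3% of rows. The second deposited table repeats rows of the first and was not used here. Alternatives were other scalings, filters and pseudocounts, limma-voom, the replicate number as a block and each library left out; the authors' size factors, and control 1 left out together with another scaling or model, were added after the data were seen.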

Additional observations from a re-analysis of the deposited data

How the results depend on the processing

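The counts of 3 cholesterol genes, 1150 of all genes and 2 related lipid genes stayed within 1.5 times under both other scalings, but not the genes: with median-of-ratios and with the authors' size factors ACAT2 lost its call (adjusted p 0.0519 and 0.0766 in limma) and STARD4 gained one (0.0491 and 0.0442), so that 1 cholesterol gene rose and 2 fell. All genes gave 42 calls with no filter on low values, 3130 with limma-voom, 0 to 8093 with 1 library left out, 8211 without control 1 on median-of-ratios factors and 9413 without it in limma-voom. Cholesterol genes gave 0 with no filter, 0 to 14 with 1 library left out, and 14 and 16 in the last 2 settings. Related lipid genes gave 4 with a pseudocount of 1 FPKM, 0 with no filter, 5 with a filter at 1 FPKM, 9 in limma-voom, 0 to 22 with 1 library left out, and 25 and 29 in the last 2 settings. Rises made up 768 of the 1150 calls in all genes, but 475 of 961 with median-of-ratios factors and 338 of 833 with the authors' size factors.

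With the replicate number as a block, 0 genes were called among all, cholesterol and related lipid genes in limma, with 5990, 8 and 17 at an unadjusted p under 0.05. The adjusted p under the block was 0.0638 for SREBF2, 0.062 for ACAT2 and 0.0541 for NSDHL. Same-numbered libraries deviated together with r of 0.15, 0.08 and 0.04 over 18548 genes, not all above 0.1. Knockdowns 1 and 3 correlated best with the control of their own number and knockdown 2 with control 3, so the numbers were not taken as a pairing.

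Changes of sign touched no gene called with all 6 libraries, and their cause was not tested; the largest values among them were those of INSIG1 and MSMO1, at -0.19 and -0.18 with all 6 libraries. With the authors' size factors the log2 fold changes were -0.04 for IDI1, -0.09 for FDFT1 and -0.09 for EBP, and with median-of-ratios factors -0.04 for FDFT1 and -0.04 for EBP. With 1 library left out, the ranges were -0.12 to 0.15 for FDFT1, -0.40 to 0.04 for MSMO1, -0.01 to 0.10 for EBP, -0.07 to 0.01 for DHCR7 and -0.35 to 0.02 for INSIG1. Without control 1 on median-of-ratios factors they were -0.02 for TM7SF2 and -0.10 for EBP, and in limma-voom 0.04 for MSMO1, -0.01 for EBP and 0.02 for INSIG1. CYP51A1 was absent under the filter at 1 FPKM. Depth limits CYP51A1 most, at 67 to 81 reads per knockdown library and 93 to 173 per control.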
